A study of Rattus norvegicus with 10 samples.

Results

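The genes followed here mark the inner lining of blood vessels, and they were measured in rat knee cartilage: Pecam1, Cdh5, Kdr, Flt1, Tek, Tie1, Vwf, Emcn and Eng. They were taken by symbol from the deposited expression table and make up 9 of its 17419 transcripts. The rule does not use their values, but the genes were chosen with earlier results of these data known. The 4 groups of Rattus norvegicus, all labelled 5 months of age, were profiled by stranded, paired-end sequencing of polyadenylated RNA from cartilage cut off the joint surface with a blade. HC (2 libraries) is control cartilage labelled WT that received no treatment, and OAC (3 libraries) received papain and L-cysteine by injection 4 weeks before collection, with nothing further given. SHAM (3 libraries) and KT (2 libraries) were both taken 10 weeks after papain/L-cysteine, and both received a vector at week 4: AAV-DJ-GFP in SHAM, and AAV-DJ-Klotho together with AAV-DJ-TGFBR2 in KT. The treatment of KT is labelled αKlotho and sTGFBR2, a soluble form of the TGF-beta receptor 2. AAV-DJ is an engineered capsid of adeno-associated virus used to deliver a gene. Papain is a protease that strips proteoglycan out of cartilage matrix, and its injection serves as a chemical model of osteoarthritis, not a mechanical one. Whether each library of a group stands for its own animal is not stated in the labels, and the p-values then measure only the spread among these libraries, part of which may be technical.

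Endothelial cells line every blood vessel, and the products of these genes carry out much of what sets them apart. Growth signals of the VEGF family are read by the receptor kinases Kdr and Flt1, angiopoietins by Tek with its partner Tie1, and circulating BMP and TGF-beta family ligands by complexes that contain the co-receptor Eng. Cdh5 and Pecam1 hold neighbouring cells together, Emcn coats the surface facing the blood, and Vwf is stored and released for clotting. Articular cartilage normally has no vessels, while the bone and marrow beneath it and the synovium beside it have many, and vessels are known to cross from bone into cartilage in osteoarthritis.

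Endothelial promoters are known for binding sites of ETS transcription factors, whose core is GGAA, so the region around the start of each gene was searched for that core. The promoter table from RefSeq, build GRCr8, covers 250 bases before to 50 bases after a gene's start and held 5 of the 9 genes, namely Eng, Tie1, Kdr, Flt1 and Emcn. Of these, 4 are printed, 5′ to 3′ along the gene's strand: Eng, the gene that passed the test between OAC and HC, Tie1, whose level followed the other members most closely, and both VEGF receptors. Capitals mark GGAA, or TTCC where the core lies on the other strand.
Eng, chr3:36332029-36332328, plus strand: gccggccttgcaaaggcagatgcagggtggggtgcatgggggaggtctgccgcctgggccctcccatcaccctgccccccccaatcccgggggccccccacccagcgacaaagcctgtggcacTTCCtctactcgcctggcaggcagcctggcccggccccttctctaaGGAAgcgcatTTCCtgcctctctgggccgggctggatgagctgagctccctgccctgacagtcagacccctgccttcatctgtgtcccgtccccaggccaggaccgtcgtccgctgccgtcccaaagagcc
Tie1, chr5:137304932-137305231, minus strand: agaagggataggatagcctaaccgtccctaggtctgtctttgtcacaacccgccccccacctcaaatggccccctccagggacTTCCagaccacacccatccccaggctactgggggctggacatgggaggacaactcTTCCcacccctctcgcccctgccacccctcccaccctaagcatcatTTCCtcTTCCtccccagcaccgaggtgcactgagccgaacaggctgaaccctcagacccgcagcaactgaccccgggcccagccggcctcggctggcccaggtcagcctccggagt
Kdr, chr14:32571813-32572112, plus strand: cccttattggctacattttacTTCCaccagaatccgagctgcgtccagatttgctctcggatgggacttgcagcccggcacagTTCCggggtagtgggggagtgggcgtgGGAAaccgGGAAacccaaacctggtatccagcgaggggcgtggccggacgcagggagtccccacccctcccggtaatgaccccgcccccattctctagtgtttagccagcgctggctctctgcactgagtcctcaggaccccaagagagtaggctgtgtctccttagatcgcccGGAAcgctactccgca
Flt1, chr12:12333180-12333479, plus strand: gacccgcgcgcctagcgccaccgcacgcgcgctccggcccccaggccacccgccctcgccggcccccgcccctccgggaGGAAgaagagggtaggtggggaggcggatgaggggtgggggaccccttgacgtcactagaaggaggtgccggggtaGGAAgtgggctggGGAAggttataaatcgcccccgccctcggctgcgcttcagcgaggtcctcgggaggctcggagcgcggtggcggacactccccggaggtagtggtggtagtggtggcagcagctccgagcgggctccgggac
On both strands together, GGAA occurred 3 times in the Eng promoter, 4 times in that of Tie1, 5 times in that of Kdr, 3 times in that of Flt1 and 8 times in that of Emcn. It is a short motif that 95.8% of the 33469 promoters of the same length hold, with a median of 3 matches, so its presence alone sets none of these genes apart. The longer form AGGAAG, which contains GGAA, was found in 4 of the 5, with 2 matches each in Eng, Flt1 and Emcn and 1 in Tie1, while Kdr held no match. AGGAAG occurs in 34.5% of all promoters. AGATAA, a form of the GATA factor motif, had no match in any of the 5 windows and occurs in 11.6% of all promoters. A match is a description of the letters, and the starts listed by RefSeq need not be those used in this tissue.

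Levels are FPKM (fragments per kilobase of exon, scaled to library size), which allows genes to be set side by side. In units of 1000000 reads, each library held 52.4 to 70.9 as recovered from the FPKM steps, with 32.1 to 44.5 on listed genes, and each of the 9 genes had between 549 and 5394 reads in every library. All 9 passed the filter for testing, a mean of at least 0.5 FPKM over the 10 libraries, which 11282 transcripts passed. Chondrocyte markers were abundant throughout, with a summed level of 4513 to 9582 FPKM over 10 genes. RNA of blood, marrow and muscle was present as well: 9 erythroid genes summed to 12430 to 37910 FPKM, and 10 skeletal muscle genes to 16780 FPKM in HC replicate 1 against 259 in HC replicate 2. In bulk RNA of such mixed tissue, a smaller number of endothelial cells cannot be told apart from less RNA per cell.

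The 2 VEGF receptors were among the lower members. Kdr, the main signalling receptor for VEGF-A (NM_013062, chromosome 14 from 34727677 to 34787126 in rn6), stood at 3.95 and 3.70 FPKM in HC, at 5.26, 6.39 and 6.95 in OAC, at 4.75, 4.89 and 4.88 in SHAM, and at 5.22 and 2.14 in KT. Every OAC library lay above every HC and every SHAM library, and the KT libraries lay on either side of all of HC and SHAM. Flt1, a receptor that binds VEGF-A tightly but signals weakly (NM_019306, chromosome 12 from 9034409 to 9205886), stood at 2.45 and 2.74 FPKM in HC, at 2.09, 3.99 and 4.34 in OAC, at 3.14, 2.66 and 3.06 in SHAM, and at 3.63 and 1.499 in KT. Its OAC and KT libraries spanned the range of the other groups, so no pair of neighbouring groups separated. By group mean both receptors were highest in OAC, then SHAM, HC and KT.

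Tek and Tie1 are the angiopoietin receptor and its partner kinase. Tek (NM_001105737, chromosome 5 from 113725717 to 113852799) was at 4.76 and 4.99 FPKM in HC, at 3.96, 7.16 and 7.44 in OAC, at 5.49, 5.91 and 5.23 in SHAM, and at 6.61 and 4.26 in KT. Of the OAC libraries, replicates 2 and 3 were the highest of all 10 and replicate 1 was the lowest. Tie1 (NM_053545, chromosome 5 from 137294546 to 137321050) was at 7.30 and 6.18 FPKM in HC, at 7.38, 12.3 and 13.6 in OAC, at 10.0, 9.03 and 9.01 in SHAM, and at 11.2 and 7.60 in KT. Both HC libraries of Tie1 lay below all 8 others, and OAC replicate 1 lay just above them. The group means of Tek ran OAC, SHAM, KT, HC and those of Tie1 ran OAC, KT, SHAM, HC, and neighbouring groups in these orders overlapped, except SHAM and HC in Tie1.

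Cdh5 and Pecam1 form cell contacts, and Emcn is a surface sialomucin most often found on capillaries and veins. Cdh5, the cadherin of endothelial junctions (NM_001107407, chromosome 19 from 1025122 to 1074333), was at 6.01 and 6.001 FPKM in HC, at 4.94, 11.5 and 13.4 in OAC, at 6.80, 7.74 and 6.25 in SHAM, and at 8.73 and 4.40 in KT. The 2 high OAC libraries lay far above the rest, and KT replicate 2 was the lowest library. Pecam1 (NM_031591, chromosome 10 from 94850971 to 94913202), which platelets and leukocytes also carry, was at 11.1 and 12.6 FPKM in HC, at 9.59, 18.0 and 18.1 in OAC, at 9.76, 12.7 and 9.74 in SHAM, and at 17.5 and 11.1 in KT. It was the 1 member with its lowest group mean in SHAM, and no 2 groups separated. Emcn (NM_001004228, chromosome 2 from 242634399 to 242714184) was at 12.7 and 11.01 FPKM in HC, at 9.46, 20.3 and 23.1 in OAC, at 17.5, 17.2 and 12.7 in SHAM, and at 20.3 and 16.6 in KT. Its mean was highest in KT, where both libraries lay above both HC libraries.

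Eng and Vwf varied more between the groups than within them. Eng (NM_001010968, chromosome 3 from 11679530 to 11717485) was the member with the highest mean over the 10 libraries, with 11.4 and 15.2 FPKM in HC, 19.5, 25.2 and 23.4 in OAC, 19.0, 20.5 and 20.5 in SHAM, and 30.1 and 16.9 in KT. Both HC libraries lay below all 8 libraries taken after papain. Vwf (NM_053889, chromosome 4 from 158088533 to 158219525), which megakaryocytes and platelets also make, was at 3.15 and 2.497 FPKM in HC, at 4.68, 4.70 and 4.13 in OAC, at 4.12, 3.58 and 5.78 in SHAM, and at 3.88 and 2.72 in KT. Its OAC and SHAM libraries all lay above HC, its KT libraries overlapped HC and SHAM, and both KT libraries lay below OAC. Differences between groups held 62.9% of the variation of Eng, 62.6% of that of Vwf and 56.4% of that of Kdr, but 13.1% of that of Tek, with a median of 30.0% over the 9 members against 59.97% over all genes tested.

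**Figure D1:**
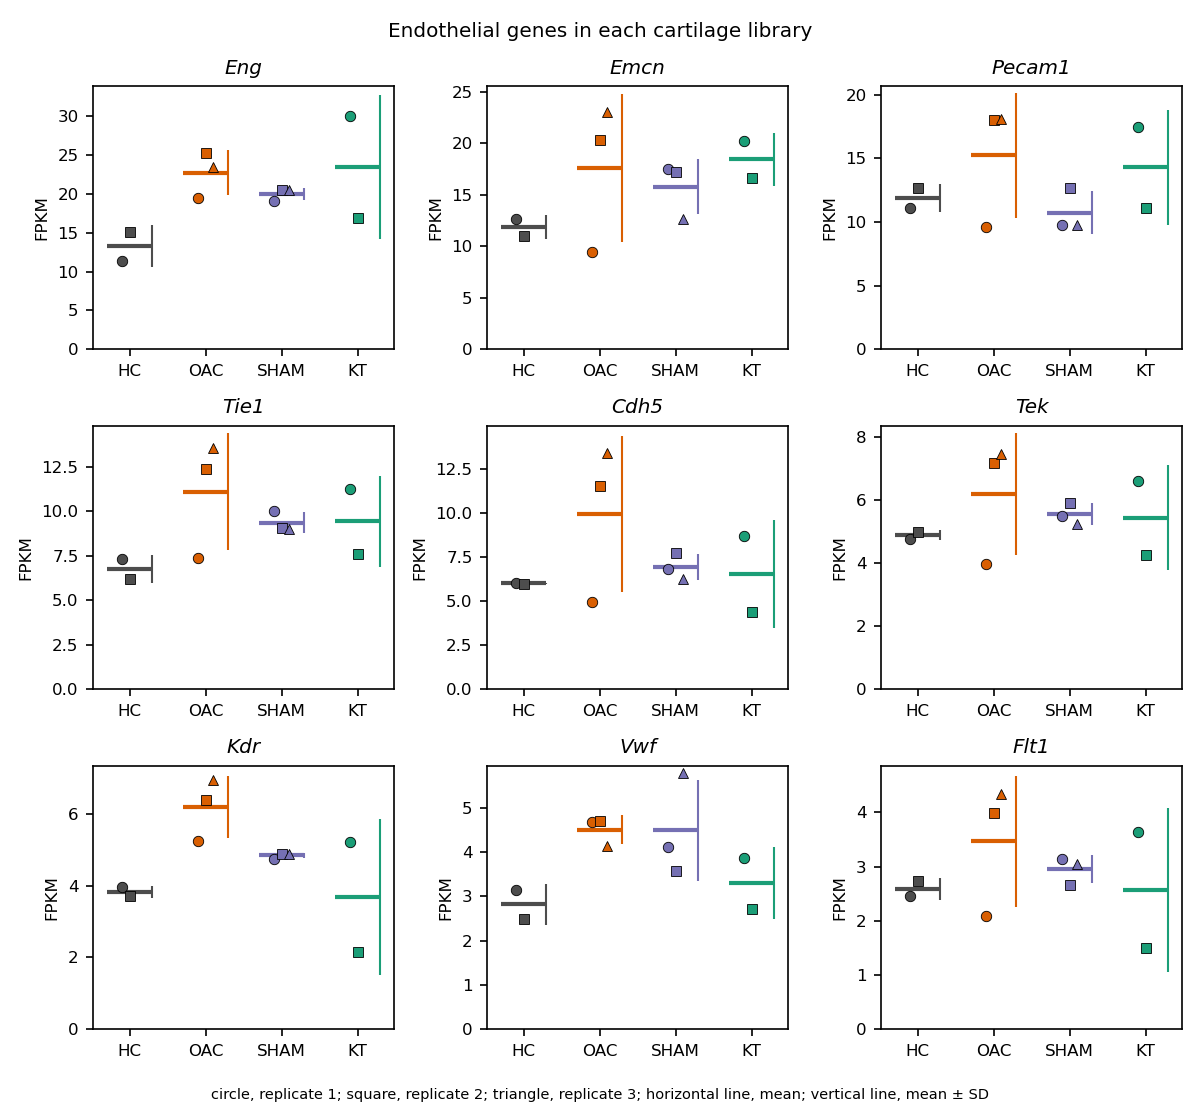
FPKM (vertical axis, from 0) of each of the 9 endothelial genes in every library, by group (HC n = 2, OAC n = 3, SHAM n = 3, KT n = 2), with symbols for the replicate number, a horizontal line at the group mean and a vertical line for mean ± SD. OAC replicate 1 lies below the other 2 OAC libraries in 8 panels and KT replicate 2 below KT replicate 1 in all 9, while the HC libraries lie close together.

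Cartilage 4 weeks after papain was set against healthy cartilage to ask whether vessel genes were higher in early disease. All 9 had a higher mean in OAC, and 1, Eng, passed the test. Eng rose from 13.3 ± 2.65 FPKM (SD, n = 2) in HC to 22.7 ± 2.92 in OAC (SD, n = 3), a ratio of means of 1.71, with a log2 change of 0.74 (SE 0.22, 95% interval 0.24 to 1.24; limma, Benjamini-Hochberg adjusted p = 0.035). All log2 changes were taken on the log2(FPKM + 1) scale, where the added 1 shrinks the change of genes with low FPKM. The share of all tested genes called in this comparison was 29.7%, and 23.4% were called higher in OAC, so 1 of 9 is below the background. A further 3 had an unadjusted p under 0.05 in limma and missed the threshold. Vwf was at 4.50 ± 0.325 against 2.82 ± 0.459 FPKM (SD, n = 3 and 2; log2 change 0.53, adjusted p = 0.059 by limma), Tie1 at 11.1 ± 3.27 against 6.74 ± 0.795 (log2 change 0.61, adjusted p = 0.084), and Kdr at 6.20 ± 0.862 against 3.82 ± 0.177 (log2 change 0.57, adjusted p = 0.11). In these 4 genes no OAC library overlapped HC, where 41.5% of all tested genes had OAC wholly above HC.

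The other 5 did not pass, and their intervals were wide. Cdh5 was at 9.96 ± 4.45 FPKM in OAC (SD, n = 3) and 6.01 ± 0.00849 in HC (SD, n = 2), a log2 difference of 0.55 with a 95% interval of -0.28 to 1.38. For Emcn the interval was -0.28 to 1.17, for Pecam1 -0.34 to 0.92, for Flt1 -0.37 to 0.93 and for Tek -0.28 to 0.79, so a rise of 1 unit on this log2 scale is within the interval of Cdh5 and Emcn and outside that of the other 3. The median log2 change was 0.53 over the 9 genes and 0.14 over all genes tested. Median-of-ratios scaling brought the median of all genes to -0.02 and that of Eng to 0.57 (limma adjusted p = 0.065), and all 9 members stayed above 0 with that scaling, with quantile normalization and with voom on recovered reads. The call of Eng was also lost without HC replicate 1 (log2 change 0.55, limma adjusted p = 0.165), without OAC replicate 2 (0.103) or 3 (0.0851), without any 1 SHAM library (0.0503, 0.0537 and 0.0524 for replicates 1, 2 and 3) and with the replicate number as a block (0.0993). Without OAC replicate 1 the count went to 4, with Cdh5 (log2 change 0.94, limma adjusted p = 0.0323), Emcn (0.82, 0.0176) and Tie1 (0.85, 0.0138) called beside Eng. Without KT replicate 1 or 2 Kdr passed too (limma adjusted p = 0.01 and 0.00989), and without SHAM replicate 3 Vwf did (0.0345). Tags in the deposited header, read here as marking sequencing runs, put 1 such run among the OAC libraries alone. If the tags do mark runs, this run and OAC cannot be told apart to that extent.

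**Figure D2:**
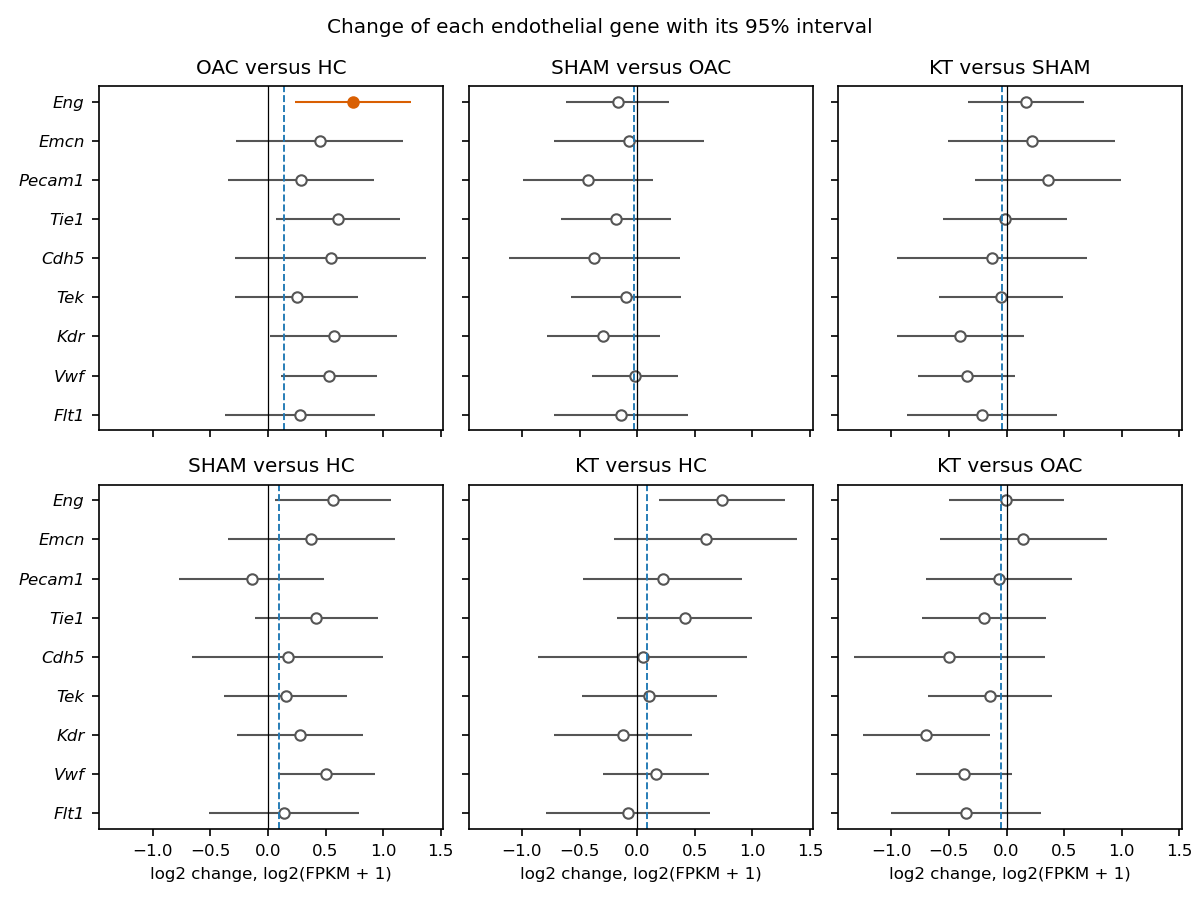
Log2 change of each endothelial gene on the log2(FPKM + 1) scale (horizontal axis) with its 95% interval in the 6 comparisons of groups, with the filled point for the 1 call. The dashed line marks the median of all tested genes. In OAC against HC all 9 points lie above 0 and Eng is the 1 filled point, and in KT against SHAM every interval spans 0.

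Markers of blood cells moved with the same comparison, where 23.4% of all tested genes were called higher in OAC and 6.27% lower. Of the megakaryocyte and platelet list, 8 of 8 measured genes rose in OAC against HC (5 without HC replicate 2), and the summed level of the list was 98.3 to 178 FPKM in HC and 366 to 524 in OAC. Neutrophil and marrow genes rose in 9 of 9 tested and summed to 1998 to 2511 FPKM in HC against 12300 to 15970 in OAC. Macrophage genes rose in 9 of 10 (6 without HC replicate 2) and erythroid genes in 7 of 8 (2 without HC replicate 2, 4 without OAC replicate 1 or 2, 5 without SHAM replicate 2 or 3 or KT replicate 2). Eng is also made by macrophages and erythroid precursors, and Vwf by megakaryocytes. Of 10 chondrocyte genes, Col9a1 and Col2a1 rose and Acan and Prg4 fell, of 8 osteoblast genes Ibsp rose, and of 10 skeletal muscle genes Tcap fell. In SHAM against HC the platelet list again rose in 8 of 8 (5 without HC replicate 2), and in KT against HC in 3 of 8 (1 to 5 when 1 library was left out). Over all tested genes, 21.0% were called higher in SHAM against HC and 14.3% in KT against HC. The part of these blood cells in the values of Eng and Vwf was not tested.

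Joints at 10 weeks with the GFP vector were compared with joints at 4 weeks, where time and vector differ together. None of the 9 genes was called, and none had an unadjusted p under 0.05 in limma, where 1.16% of all tested genes were called. All 9 means were lower in SHAM, with a median log2 difference of -0.17 against -0.02 over all genes, and that of Vwf changed sign with median-of-ratios scaling and with quantile normalization. The signs also depended on single libraries, with Emcn and Tek above 0 without OAC replicate 2 or 3, Flt1 without OAC replicate 3, Emcn without SHAM replicate 3, and Vwf without OAC replicate 1 or 2 or SHAM replicate 1 or 2. Kdr was the 1 member without overlap, at 4.84 ± 0.0765 FPKM in SHAM (SD, n = 3) and 6.20 ± 0.862 in OAC (SD, n = 3; log2 difference -0.29, 95% interval -0.79 to 0.20; limma adjusted p = 0.81), and 10.0% of all tested genes had SHAM wholly below OAC. Pecam1 had the most negative difference of the 9, at 10.7 ± 1.68 against 15.2 ± 4.89 FPKM (log2 difference -0.43, 95% interval -0.99 to 0.14).

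Against healthy cartilage, SHAM had 8 of 9 means higher and 0 called by limma, where 26.5% of all genes tested were called. Eng was at 20.0 ± 0.824 FPKM in SHAM (SD, n = 3) against 13.3 ± 2.65 in HC (SD, n = 2; log2 change 0.57, limma adjusted p = 0.090). Vwf was at 4.49 ± 1.14 against 2.82 ± 0.459 (log2 change 0.51, limma adjusted p = 0.073). Both had an unadjusted p under 0.05. Eng passed without KT replicate 1 or 2 (limma adjusted p = 0.0259 and 0.026), which leaves the HC and SHAM libraries as they are. In 7 genes, all but Pecam1 and Flt1, every SHAM library lay above HC, a pattern found in 36.8% of all genes tested. In Emcn the gap was slight, with SHAM replicate 3 at 12.691 FPKM and HC replicate 1 at 12.682. The median log2 change was 0.28 over the 9 and 0.10 over all genes. The comparisons of OAC and SHAM with HC share the same 2 HC libraries.

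The αKlotho and sTGFBR2 vectors were compared with the GFP vector at the same 10 weeks. None of the 9 endothelial genes was called by limma, where 1.05% of all tested genes were, and 0 had an unadjusted p under 0.05. With voom on recovered reads 0 of the 9 were called as well. Of the 9 means, 3 were higher in KT and 6 lower, a split that went to 8 and 1 without KT replicate 2, to 2 and 7 without KT replicate 1 and to 5 and 4 with quantile normalization or the replicate block. No gene separated the groups, against 15.0% of all tested genes with KT wholly above and 17.4% with KT wholly below SHAM. Pecam1 had the highest difference, at 14.3 ± 4.52 FPKM in KT (SD, n = 2) and 10.7 ± 1.68 in SHAM (SD, n = 3; log2 difference 0.36, 95% interval -0.27 to 0.99). Kdr had the lowest, at 3.68 ± 2.18 against 4.84 ± 0.0765 FPKM (log2 difference -0.40, 95% interval -0.95 to 0.15; limma adjusted p = 0.47). Vwf was at 3.30 ± 0.818 against 4.49 ± 1.14 FPKM (log2 difference -0.35, 95% interval -0.77 to 0.07; limma adjusted p = 0.42), and Tie1 was at 9.42 ± 2.57 against 9.35 ± 0.572. Eng was at 23.5 ± 9.29 against 20.0 ± 0.824 FPKM (log2 difference 0.17, 95% interval -0.33 to 0.67). Over the 9 genes the intervals reached from -0.95 to 0.99, so a change of 1 unit on this log2 scale falls just outside each of them. Without KT replicate 1, where KT is the single library KT replicate 2 and is assumed to vary like the other groups, Kdr was called lower (log2 change -0.89, limma adjusted p = 0.041).

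KT was also set against HC and OAC. Against HC 0 of 9 were called by limma, with 18.2% of all tested genes called. Eng came nearest at 23.5 ± 9.29 FPKM in KT (SD, n = 2) and 13.3 ± 2.65 in HC (SD, n = 2; log2 change 0.74, limma adjusted p = 0.067; unadjusted p under 0.05), and it passed without KT replicate 2 (log2 change 1.13, adjusted p = 0.0182), where KT is replicate 1 alone and its spread is taken from the other groups. In Emcn, Eng and Tie1 both KT libraries lay above HC, where 36.6% of all tested genes did. Against OAC 0 were called, with 0.399% of all tested genes called. Kdr was at 3.68 ± 2.18 FPKM in KT and 6.20 ± 0.862 in OAC (SD, n = 2 and 3; log2 change -0.70, 95% interval -1.24 to -0.15; limma adjusted p = 0.20, unadjusted p = 0.019), and it was called without KT replicate 1 (log2 change -1.19, adjusted p = 0.0181), again with 1 KT library and the spread of the other groups. Kdr and Vwf had both KT libraries below OAC, as had 23.3% of all tested genes. These comparisons share the KT libraries. With only the KT and HC libraries fitted, 10 of all tested genes were called between them. The KT against HC calls given below for Icam2, Myh11, Abcc9, Rgs5, Angpt4, Vegfc, Vcam1, Jam2 and Pdpn did not hold in that fit.

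Much of the variation of the 9 genes lay between libraries of the same group. Their summed level was 62.8 and 64.9 FPKM in HC, 66.9, 110 and 114 in OAC, 80.6, 84.2 and 77.1 in SHAM, and 107 and 67.2 in KT. OAC replicate 1 and KT replicate 2 were close to the HC libraries, and OAC replicates 2 and 3 and KT replicate 1 were the highest. The marker sums of some other lists were split the same way in both groups. The osteoblast list was at 4259, 5742 and 6933 FPKM in OAC and 4225 and 1618 in KT (replicates in order). The mural list was at 91.1, 178 and 149 in OAC and 200 and 154 in KT. The skeletal muscle list was at 209, 719 and 374 in OAC and 898 and 165 in KT. Other lists ran the other way in OAC, in KT or in both. In OAC the erythroid list was at 35420, 22970 and 19860 FPKM. The neutrophil and marrow list was at 15970, 12510 and 12300 in OAC but at 8062 and 3471 in KT. The macrophage list was at 3598, 2903 and 2507 in OAC and 4008 and 5204 in KT. The platelet list was at 524, 366 and 424 in OAC and 300 and 437 in KT. The chondrocyte list was at 5376, 7872 and 7566 in OAC but at 6617 and 9582 in KT. The part of these cells in the split was not tested. Nor was that of sequencing runs, since the tags read as runs could not be tied to single libraries. Both OAC replicates 2 and 3 had at least 1.5 times the level of replicate 1 in 6 of 9 members, and 3.91% of all tested genes showed that pattern. KT replicate 1 had at least 1.5 times the level of replicate 2 in 6 of 9, against 12.3% of all tested genes, and lay above it in 9 of 9, against 66.6%. The ratio of the highest to the lowest OAC library had a median of 1.88 over the members (1.14 in Vwf to 2.71 in Cdh5) and of 1.196 over all tested genes. In KT it was 1.58 against 1.17, in SHAM 1.179 against 1.24 and in HC 1.14 against 1.22. These splits within a group were noticed in the data and no test was made of them.

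**Figure D3:**
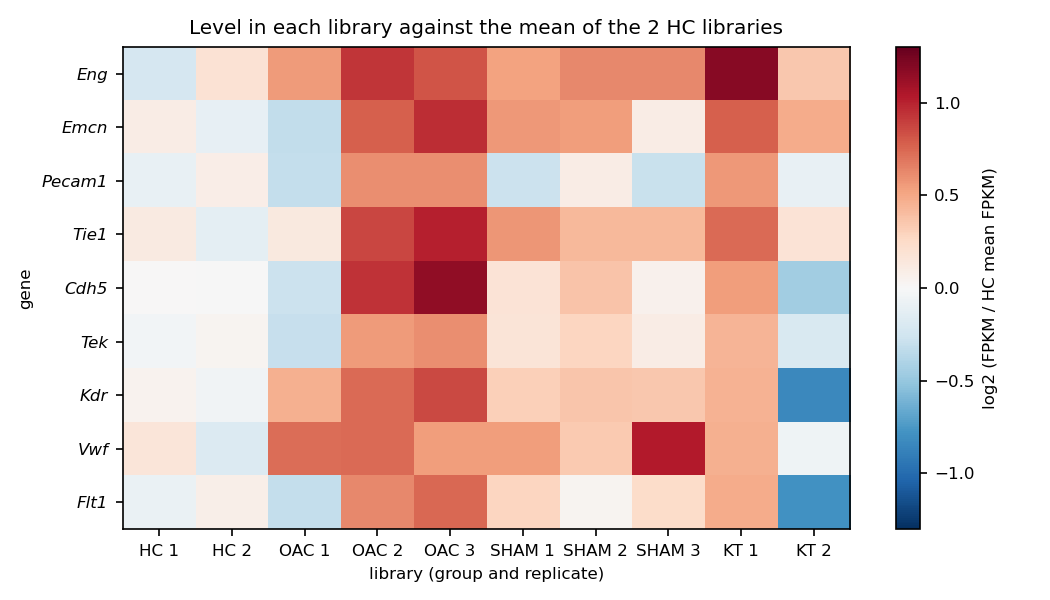
Level of each endothelial gene (rows) in each library (columns, group and replicate) as log2 of its FPKM over the mean of the 2 HC libraries, red above and blue below. The columns OAC 2, OAC 3 and KT 1 are red in every row, OAC 1 is blue in Emcn, Pecam1, Cdh5, Tek and Flt1, and KT 2 is bluest in Kdr and Flt1.

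The members followed each other to different degrees from library to library. The closest pairs had Pearson's r on the log2(FPKM + 1) scale of 0.967 for Cdh5 and Tek, 0.916 for Flt1 and Cdh5, 0.912 for Flt1 and Tek, and 0.880 for Tek and Tie1 over the 10 libraries. Emcn and Pecam1 were near them, with 0.864 for Tie1 and Emcn and 0.849 for Pecam1 with either Tek or Cdh5, against 0.801 for Flt1 and Tie1. Vwf followed the rest least, with r = -0.019 against Pecam1 and 0.090 against Emcn, and 0.687 against Kdr. All these values come from the same 10 libraries, whose depth and tissue make-up they share. As a share of the summed FPKM of the 9 genes, Eng made up 18.2 to 29.2%, Emcn 14.2 to 24.7% and Pecam1 12.1 to 19.5%. Tie1 and Tek kept narrow shares, 9.52 to 12.4% and 5.92 to 7.69%, while Kdr went from 3.19% in KT replicate 2 to 7.86% in OAC replicate 1 and Vwf from 3.61 to 7.49%. The endothelial transcripts were therefore not present in 1 fixed ratio in every library.

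Of the other tested genes, the 8 whose level followed the mean profile of the members most closely over the 10 libraries were Meis3 (r = 0.946), Spata18 (0.945), Meox1 (0.944), Rasal2 (0.936), Nav3 (0.936), Nrp1 (0.928), Clcn7 (0.926) and Tead2 (0.920). Each of the 9, set against the mean profile of the other 8, ranged from 0.415 for Vwf to 0.940 for Tie1. Nrp1, a co-receptor for VEGF-A, had 6.77 and 8.62 FPKM in HC, 9.24, 13.0 and 15.2 in OAC, 9.83, 10.2 and 9.98 in SHAM and 10.7 and 6.91 in KT. Meis3 and Meox1, both homeobox factors, had the same 3 highest libraries, OAC replicates 2 and 3 and KT replicate 1. Meis3 read 5.05, 5.62 and 5.07 FPKM in them and Meox1 2.55, 1.95 and 1.80.

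Other endothelial markers were counted in a list of 28 symbols, of which 24 matched and 23 were tested. In OAC against HC 4 rose, 0 fell and 19 did not pass, where 23.4% of all tested genes rose, with a median log2 change of 0.27 against 0.14 over all genes. The 4 were Icam2, an adhesion molecule shared with platelets and leukocytes, Tal1, a transcription factor of endothelial and blood cells, Cd93, which myeloid cells also carry, and Gimap4, better known from lymphocytes. Icam2 rose from 7.83 and 7.29 FPKM in HC to 14.6, 16.3 and 12.5 in OAC (log2 change 0.85, limma adjusted p = 0.015). None of the 23 was called without HC replicate 2 or without OAC replicate 2, and 2 were called higher without OAC replicate 3, with no filter, with median-of-ratios scaling (where 1 was also called lower), with quantile normalization, with voom or with a replicate block. Plvap, which forms the diaphragms of permeable capillaries, had 9.75 and 9.02 FPKM in HC, 5.61, 14.2 and 14.98 in OAC, 9.98, 8.65 and 6.55 in SHAM and 12.7 and 7.92 in KT, with OAC replicate 1 again the lowest library. Cldn5, a tight junction protein of endothelium, had 5.81 and 4.39 FPKM in HC, 5.40, 7.14 and 14.5 in OAC, 3.25, 6.26 and 3.69 in SHAM and 2.98 and 4.10 in KT. Neither was called in any comparison. In SHAM against HC, where 21.0% of all tested genes rose, 3 of 23 did so, Icam2 (18.2 ± 3.82 against 7.56 ± 0.381 FPKM; SD, n = 3 and 2; limma adjusted p = 0.0044), Tal1 and Gimap4, in KT against HC Icam2 alone did (limma adjusted p = 0.049), and 0 passed in KT against SHAM. The call of Icam2 in KT against HC was lost when any 1 library other than SHAM replicate 1 or KT replicate 2 was left out (limma adjusted p of 0.0543 to 0.225). Gimap4 lost its call in SHAM against HC without HC replicate 2, SHAM replicate 1 or SHAM replicate 2 (limma adjusted p = 0.125, 0.0635 and 0.0767).

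Mural cells are the pericytes and smooth muscle cells wrapped around vessels. Of 15 tested mural genes 0 rose and 2 fell in OAC against HC, where 6.27% of all tested genes fell, and 13 did not pass. The 2 were Myh11, the heavy chain of smooth muscle myosin, and Abcc9, a potassium channel subunit of pericytes. The count was 1 without OAC replicate 1 or 3 or any 1 SHAM library and 3 without HC replicate 2. Neither call held without HC replicate 1, where Myh11 had an adjusted p of 0.0842 and Abcc9 of 0.265 in limma, and that of Myh11 was also lost without HC replicate 2 (0.0945). Myh11 had 4.35 and 4.52 FPKM in HC, 0.659, 2.75 and 2.14 in OAC, 0.915, 0.995 and 0.891 in SHAM and 1.17 and 1.75 in KT. It fell in SHAM against HC, where 5.48% of all tested genes fell (log2 change -1.49, limma adjusted p = 0.0072), with Abcc9 (-1.10, 0.025) and with Acta2, the smooth muscle actin (-1.94, 0.026), and the count went from 3 to 1 without HC replicate 1, SHAM replicate 1 or SHAM replicate 2 and to 2 without SHAM replicate 3. The call of Acta2 was lost without any 1 HC or SHAM library (limma adjusted p of 0.0544 to 0.0775). In KT against HC, where 446 of the 11282 tested genes fell, Myh11 (-1.15, limma adjusted p = 0.040) and Abcc9 (-1.11, 0.044) fell as well. Neither call held without HC replicate 1 or without KT replicate 2. Acta2 had 8.65 and 8.52 FPKM in HC and 1.67, 1.25 and 1.59 in SHAM, with 6.49 and 6.03 in KT. HC replicate 1 carried far more skeletal muscle RNA than the others, as given above, and the part of muscle in these values was not tested.

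Rgs5, a regulator of G protein signalling that marks pericytes, was highest in KT. It had 16.2 and 22.5 FPKM in HC, 22.0, 44.5 and 40.9 in OAC, 18.8, 27.3 and 13.2 in SHAM, and 64.2 and 47.8 in KT, where both libraries lay above all 8 others. Against HC, where 14.3% of all tested genes rose, it rose 2.89-fold (log2 change 1.49, limma adjusted p = 0.032), a call that was lost without HC replicate 1 (0.102), KT replicate 1 (0.135) or KT replicate 2 (0.0681). Against SHAM its log2 difference was 1.497 and did not pass (limma adjusted p = 0.12). Pdgfrb, the receptor that recruits pericytes, was at 15.7 ± 8.73 FPKM in KT (SD, n = 2) and 15.5 ± 0.749 in SHAM (SD, n = 3) and was called in no comparison.

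Few of the ligands that act on these receptors passed the test. Vegfa was by far the most abundant, with 90.0 and 108 FPKM in HC, 68.5, 92.8 and 96.8 in OAC, 114, 101 and 90.1 in SHAM, and 92.9 and 142 in KT, and it was called in no comparison, with a log2 difference of 0.43 between KT and OAC (95% interval -0.06 to 0.91). Chondrocytes are a known source of it. Angpt1, the activating ligand of Tek, and Angpt2, its context-dependent antagonist, were called in none either, at 6.47 ± 2.30 and 7.20 ± 1.55 FPKM in SHAM (SD, n = 3) and 4.37 ± 0.367 and 5.70 ± 2.67 in KT (SD, n = 2). Of 12 tested ligands and co-receptors, 2 rose in OAC against HC, where 23.4% of all tested genes rose. Angpt4, another ligand of Tek, went from 0.487 and 0.380 FPKM to 1.08, 1.38 and 1.52 (log2 change 0.70, limma adjusted p = 0.0086), and Nrp2, a co-receptor for VEGF-C, from 18.3 and 24.1 to 32.8, 50.6 and 47.8 (log2 change 0.999, limma adjusted p = 0.010; 0.0539 without HC replicate 1). In KT against HC, where 14.3% of all tested genes rose, Angpt4 and Vegfc of the 12 did. Vegfc, the growth factor of lymphatic vessels, had 1.52 and 1.62 FPKM in HC and 2.90 and 3.06 in KT (log2 change 0.63, limma adjusted p = 0.012; 0.052 without KT replicate 2). Angpt4 had a limma adjusted p of 0.024 there, lost without HC replicate 2 (0.0657) or KT replicate 2 (0.114). In SHAM against HC Angpt4 alone rose (limma adjusted p = 0.019), a call lost without HC replicate 2 (0.0715) or SHAM replicate 2 (0.0619), and 0 of 12 passed in KT against SHAM or SHAM against OAC, with 1 in each at an unadjusted p under 0.05 in limma.

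Adhesion molecules that leukocytes use on inflamed vessels were counted next. Of 9 tested, 4 rose in OAC against HC and 5 in SHAM against HC, where 23.4% and 21.0% of all tested genes rose. The 4 were Selp, F11r, Icam2 and Vcam1, of which 2 were called without HC replicate 2 or OAC replicate 2. Selp, the P-selectin of endothelium and platelets, had 2.12 and 1.34 FPKM in HC and 5.601, 4.26 and 4.36 in OAC (log2 change 1.08, limma adjusted p = 0.0066), and F11r, a junction molecule also found on platelets, had 3.42 and 2.45 against 4.59, 5.69 and 5.80 (log2 change 0.70, limma adjusted p = 0.0079). Vcam1, which synovial and mesenchymal cells also carry, had 7.88 and 8.93 FPKM in HC, 16.1, 16.5 and 16.5 in OAC, 15.9, 29.7 and 22.1 in SHAM, and 24.4 and 39.5 in KT. Its call in OAC against HC was lost without any 1 HC or OAC library (limma adjusted p of 0.0613 to 0.104). In KT against HC 14.3% of all tested genes rose, and 446 of 11282 fell. Vcam1 rose there with a log2 change of 1.77 (limma adjusted p = 0.0052), as did Icam2. Jam2, a junction molecule of endothelium, fell there from 19.3 and 22.2 FPKM in HC to 14.1 and 7.88 in KT (log2 change -0.91, limma adjusted p = 0.033). The call of Jam2 was lost without HC replicate 1 (0.052) or 2 (0.0946), OAC replicate 2 (0.0543), SHAM replicate 2 (0.0521) or KT replicate 2 (0.135). Sele, the E-selectin of activated endothelium, had 0.636 and 0.888 FPKM in HC, 0.629, 0.591 and 0.876 in OAC, 1.14, 1.62 and 1.16 in SHAM and 2.26 and 1.05 in KT and was called in no comparison. It was named after its values were seen. The fifth gene in SHAM was Icam1, also named after its values were seen, and the count there was 3 without HC replicate 2, SHAM replicate 1 or SHAM replicate 2.

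Among 6 tested genes of the vessel basement membrane, Nid2 and Sparc rose in OAC against HC, where 23.4% of all tested genes did. Nid2, a nidogen that links laminin to collagen IV, went from 3.55 and 6.15 FPKM to 8.53, 10.4 and 11.996 (log2 change 0.98, limma adjusted p = 0.0072). Sparc, a matrix glycoprotein that bone and cartilage cells make in bulk, lost its call without HC replicate 1 (log2 change 0.57, limma adjusted p = 0.309), any 1 OAC library (0.0743, 0.095 and 0.0967), SHAM replicate 2 (0.07) or 3 (0.0527) or KT replicate 2 (0.0511). Gja1, a gap junction protein of many cell types, was the 1 gene of 15 tested in the Notch and arteriovenous list that rose, a share below that over all genes, from 33.1 and 42.1 FPKM to 87.5, 112 and 103 (log2 change 1.40, limma adjusted p = 0.0054).

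Proteins that restrain vessel growth were counted in a list of 8 tested genes. In OAC against HC 1 was higher and 1 lower, where 23.4% of all tested genes were called higher and 6.27% lower. Thbs2, a thrombospondin that inhibits angiogenesis, had 196 and 192 FPKM in HC, 79.2, 79.3 and 95.4 in OAC, 64.3, 60.6 and 69.2 in SHAM, and 131 and 103 in KT, an order in which no 2 groups overlapped. It fell in OAC against HC (log2 change -1.19, limma adjusted p = 0.0011) and in SHAM against HC (-1.57, 0.0002). In KT against SHAM it was the 1 called gene of the list, at 117 ± 19.7 FPKM (SD, n = 2) against 64.7 ± 4.30 (SD, n = 3; log2 change 0.84, limma adjusted p = 0.028), where 0.363% of all tested genes rose. That call was lost without SHAM replicate 1 (0.0955), 2 (0.107) or 3 (0.0755), KT replicate 1 (0.0809) or OAC replicate 2 (0.0505), with quantile normalization (0.0571) and with only the 2 groups fitted (0.0789). Serpinf1, the pigment epithelium derived factor, rose from 43.0 and 91.1 FPKM in HC to 176, 307 and 336 in OAC (log2 change 2.05, limma adjusted p = 0.0088). In KT against HC, where 18.2% of all tested genes were called, Thbs2 fell (log2 change -0.73, limma adjusted p = 0.013). Thbs1, a second thrombospondin, fell there from 184 ± 67.8 to 78.7 ± 24.0 FPKM (SD, n = 2 and 2; log2 change -1.20, limma adjusted p = 0.034). Serpinf1 rose there (log2 change 1.65, limma adjusted p = 0.042). How far these KT against HC calls held in the alternative runs is not given here. Cnmd, the cartilage protein chondromodulin, was at 12.0 ± 3.93 FPKM in HC, 9.74 ± 3.47 in OAC, 7.38 ± 4.11 in SHAM and 7.48 ± 2.36 in KT (SD, n = 2, 3, 3 and 2) and was not called.

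Of the lymphatic list, Lyve1 and Pdpn differed between the 10-week groups. Lyve1, a hyaluronan receptor of lymphatic endothelium and of some macrophages, had 7.57 and 9.13 FPKM in HC, 7.25, 6.28 and 6.58 in OAC, 1.63, 3.32 and 2.88 in SHAM, and 10.7 and 15.8 in KT. KT was 5.07 times SHAM (13.2 ± 3.55 against 2.61 ± 0.873 FPKM; SD, n = 2 and 3; log2 change 1.99, limma adjusted p = 0.0038). Pdpn, podoplanin, which lymphatic endothelium shares with fibroblasts and bone cells, had 18.9 and 22.6 FPKM in HC, 28.5, 31.7 and 28.8 in OAC, 12.2, 18.1 and 15.1 in SHAM, and 42.1 and 35.6 in KT, 2.57 times SHAM (log2 change 1.32, limma adjusted p = 0.0063). Both calls held in every alternative run. Of 6 lymphatic symbols 5 matched and 3 were tested, Flt4 being the other, so these 2 calls are 2 of 3. Over all tested genes 0.363% were called higher in KT against SHAM. Against HC, Lyve1 fell in SHAM (log2 change -1.40, limma adjusted p = 0.0028). Pdpn rose against HC in OAC (log2 change 0.50, limma adjusted p = 0.045), where 23.4% of all tested genes rose. How far that OAC call held in the alternative runs is not given here. Pdpn also rose against HC in KT (log2 change 0.87, limma adjusted p = 0.013), a call that was lost without KT replicate 1. Prox1, the transcription factor that defines lymphatic endothelium, was at 0.040 and 0.018 FPKM in HC and at or below 0.008 in every other library, and Flt4, the receptor for VEGF-C, was at 0.778 ± 0.474 FPKM in KT (SD, n = 2) and 1.17 ± 0.229 in SHAM (SD, n = 3) and was not called. Prox1 was near 0 in every library, in KT as in the other groups, and the source of the Lyve1 and Pdpn values was not tested. Prox1 and Flt4 were named after their values were seen. Of 10 macrophage genes 0 passed in KT against SHAM (limma; the unadjusted p was under 0.05 in 3, of which 2 were higher), and they summed to 4008 to 5204 FPKM in KT and 4627 to 7848 in SHAM. Both genes fell in SHAM against OAC, as did 0.239% of all tested genes (limma adjusted p = 0.036 for Lyve1 and 0.017 for Pdpn), calls that both ended when any 1 OAC library or SHAM replicate 3 was left out, with limma adjusted p of 0.11 to 0.134 and 0.0606 to 0.083 without an OAC library and 0.0937 and 0.0729 without SHAM replicate 3. Lyve1 also lost it without SHAM replicate 1 (0.066) or 2 (0.0561), with no filter (0.0717) and with median-of-ratios scaling (0.0557).

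**Figure D4:**
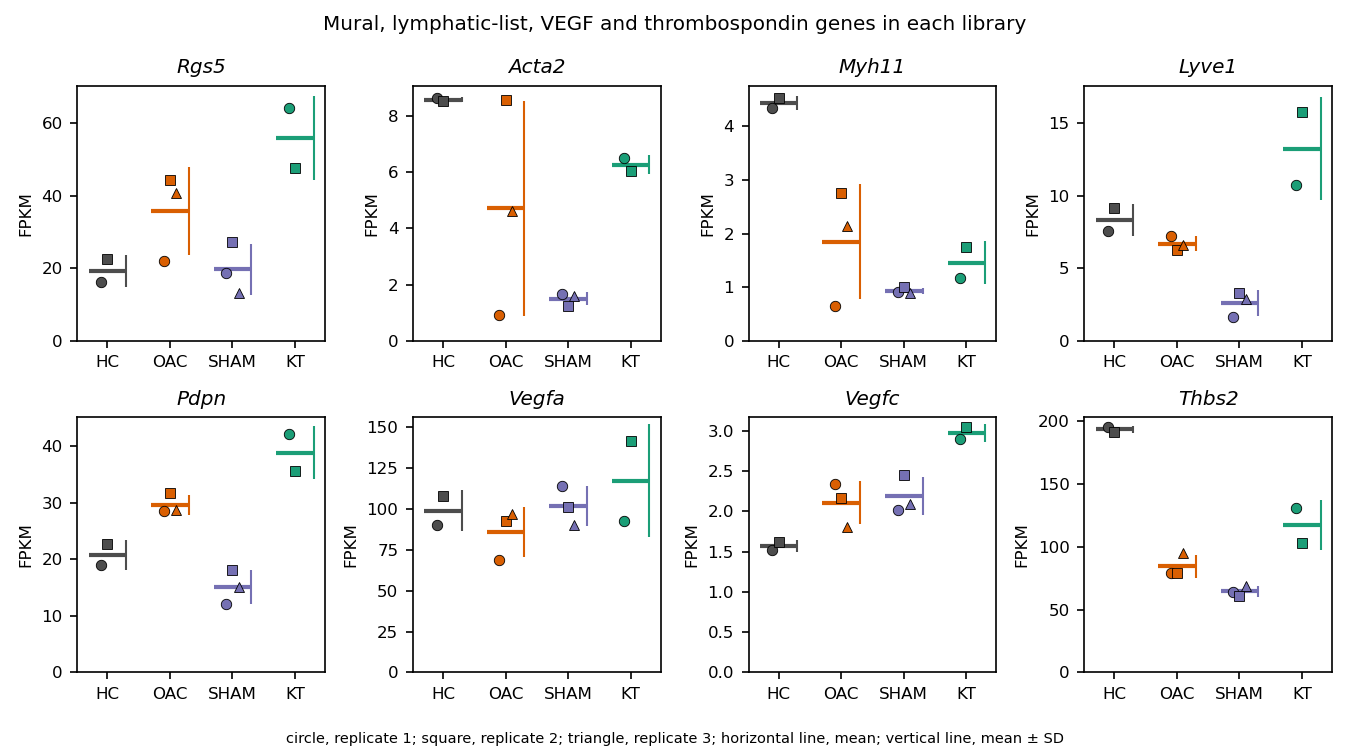
FPKM (vertical axis, from 0) of the mural genes Rgs5, Acta2 and Myh11 and of Lyve1, Pdpn, Vegfa, Vegfc and Thbs2 in every library by group. Symbols give the replicate number, a horizontal line the group mean and a vertical line mean ± SD. Rgs5, Lyve1 and Pdpn are highest in the 2 KT libraries, Myh11 and Thbs2 in the 2 HC libraries.

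The authors' deposited table gives its own DESeq2 values for the same genes in 4 pairs of groups. Between OAC and HC, the authors' deposited table has 3 of the 9 with an adjusted p under 0.05, all higher in OAC: Eng (log2 difference 0.588, adjusted p = 0.0206), Vwf (0.483, 0.0214) and Kdr (0.508, 0.0302). The authors' deposited table has 0 of 9 under that threshold for KT against SHAM (lowest adjusted p = 0.361, for Pecam1), for SHAM against OAC (0.273, for Kdr) and for SHAM against HC (0.0563, for Eng).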

How the data were processed

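RNA of 10 cartilage libraries in 4 groups was analysed (HC 2, OAC 3, SHAM 3, KT 2). The authors deposited 1 table of FPKM values for 17419 transcripts. Per the submitters' processing notes, reads were checked with FastQC 0.11.2, mapped with STAR 2.5.3a to rn6, quantified with HOMER and compared with DESeq2 1.18.1. Per the file headers, reads were counted over exons on the minus strand with 1 transcript per gene. The authors' deposited comparison table holds log2 fold changes and p-values for 4 pairs of groups. It was used only where named. Tags in its header, read here as marking sequencing runs, could not be tied to single libraries, so no within-run values could be computed.

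Libraries were assigned to groups from the labels. The FPKM values were whole multiples of a step per library in 100% of the low values checked, within 0.15 of a read, so reads were recovered for voom as an alternative, while the main test stayed on FPKM as deposited. The main test was limma 3.58.1 (R 4.3.3) with an intensity trend on log2(FPKM + 1), with all 10 libraries in 1 fit, group as the only term and two-sided tests, on the 11282 transcripts with a mean of at least 0.5 FPKM. Benjamini-Hochberg adjustment ran over all of them, and a call needs an adjusted p under 0.05. The test was checked on simulated data. Unadjusted and adjusted p-values, 95% intervals and SE come from this fit. Tables and plots were made with pandas 2.3.3, numpy 2.4.6 and matplotlib 3.10.9. Promoter sequences are from RefSeq, build GRCr8, matched by symbol. The 9 genes and the 16 lists (173 of 191 entries matched) were chosen with earlier results of these data known, so no p was adjusted over a list alone and no list was tested as a set. The text names the 9 genes, a set of fixed partners (Vegfa, Vegfc, Angpt1, Angpt2, Cnmd, Rgs5, Pdgfrb, Plvap and Cldn5; Ptprb had no match), up to 4 called genes per list and comparison by adjusted p, and the 8 genes closest to the members' mean profile. Alternatives were a pseudocount of 0.1, no filter, a mean of at least 1 FPKM, median-of-ratios scaling, quantile normalization, voom, only the 2 groups compared, the replicate number as a block, and leaving out each library.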

Additional observations from a re-analysis of the deposited data

How the results depend on the processing

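The count of called genes among the 9 in OAC against HC was 1. It was 0 with no filter, median-of-ratios scaling, quantile normalization, voom on recovered reads or the replicate block, 3 with only the 2 groups fitted, and 0 to 4 when 1 library was left out. In KT against SHAM, SHAM against HC, KT against HC and KT against OAC it was 0, and 0 to 1 when 1 library was left out. In SHAM against OAC it was 0 under every alternative run. No called value changed direction under any of them.

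Over all tested genes, leaving out 1 library gave 2163 to 3331 calls in OAC against HC (3348 with all), 54 to 163 in SHAM against OAC (131), 45 to 122 in KT against SHAM (118), 1968 to 2969 in SHAM against HC (2986), 972 to 2205 in KT against HC (2057) and 4 to 312 in KT against OAC (45). With only the 2 groups fitted there were 73 calls in KT against SHAM, 1970 in SHAM against HC, 10 in KT against HC and 17 in KT against OAC. KT against OAC had 20 with no filter and 24 with voom. Scaling moved the split of higher and lower calls. In OAC against HC it was 2641 and 707 as deposited, 1732 and 1353 with median-of-ratios scaling, 1727 and 1274 with quantile normalization and 1807 and 986 with voom. In SHAM against HC it was 2368 and 618, 1678 and 1251, 1590 and 1227, and 1690 and 937 in the same order, and in KT against HC 1611 and 446, 1068 and 800, 948 and 621, and 939 and 589.

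Replicate numbers are shared between groups, but nothing in the labels says that they pair libraries. Deviations of same-numbered OAC and SHAM libraries had r of -0.07, -0.38 and -0.16 over genes. Other same-numbered values had both signs, from -0.48 (HC and SHAM, replicate 1) to 0.49 (HC and SHAM, replicate 2). These involve HC or KT, where the deviations of the 2 libraries from their mean are equal and opposite. They therefore cannot decide whether the numbers pair libraries. Each OAC library correlated best with a SHAM library of another number. The replicate block gave 2206 calls in OAC against HC, 1951 in SHAM against HC, 1116 in KT against HC and 13 in KT against OAC. With 549 or more reads per member in every library, the spread between libraries and their number, not counting error, limited the precision.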
